A study of Homo sapiens with 3 samples.

Results

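Expression of the SR proteins and the heterogeneous nuclear ribonucleoproteins (hnRNPs) was examined in HCT-116 colon cancer cells with and without silencing of *APC* by siRNA. The group was defined by gene symbol alone, as every gene called SRSF plus a number or starting with HNRNP, with 2 pseudogenes left out, and it has 33 members (12 SR proteins and 21 hnRNPs) among the 23131 genes listed. HCT-116 is a colon carcinoma line that carries wild-type APC and the degradation-resistant β-catenin allele CTNNB1ΔSer45, so canonical WNT signaling is already active in both conditions. One library was made from cells transfected with pooled anti-*APC* siRNA on 2 consecutive days and harvested 48 hours after the second transfection. The control library came from cells that received no siRNA, called untransfected in the title and reagent only (mock) in the treatment label. A library for scrambled siRNA belongs to the same series and was not analysed here, so each ratio below includes any effect of siRNA delivery.

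SR proteins bind exons through RNA recognition motifs and recruit the spliceosome through a tail rich in arginine and serine, and they are switched on and off by phosphorylation of that tail. The hnRNPs coat nascent transcripts, and many of them block splice sites that SR proteins would otherwise promote, so that the balance of both families sets which exons enter the mRNA. Most members are abundant in every dividing cell, and many restrain their own levels by splicing in an exon with an early stop codon, which sends the transcript to nonsense-mediated decay. In colon and other cancers the families are studied for their control of splicing in genes of growth, metabolism and cell adhesion.

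The 4 exons below come from SR genes of the group. They are shown because the values reported here are per gene and do not separate transcripts with such an exon from those without. The annotation behind the values is not given, so whether reads from these exons entered them is not known. Where a gene has several, the longest is shown. Each is printed from its first base to its stop codon, which is in capitals, and was read from GENCODE 44 transcripts on GRCh37. The stretches are *SRSF3* at chr6:36567598-36567631 on the plus strand (exon of 456 bases), *SRSF4* at chr1:29492521-29492576 on the minus strand (exon of 175 bases), *SRSF6* at chr20:42087793-42087944 on the plus strand (exon of 268 bases) and *SRSF7* at chr2:38976461-38976488 on the minus strand (exon of 449 bases).
SRSF3: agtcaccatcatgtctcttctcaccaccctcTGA
SRSF4: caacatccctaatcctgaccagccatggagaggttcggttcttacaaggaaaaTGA
SRSF6: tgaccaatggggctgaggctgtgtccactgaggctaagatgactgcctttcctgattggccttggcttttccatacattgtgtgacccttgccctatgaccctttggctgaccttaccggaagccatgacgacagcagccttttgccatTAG
SRSF7: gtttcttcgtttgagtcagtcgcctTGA

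An internal exon that holds the stop codon of an annotated decay transcript, and that no protein-coding transcript of the gene overlaps, was found in 7 of the 12 SR genes and 4 of the 21 hnRNP genes. One of these 4, the read-through gene *HNRNPUL2-BSCL2*, has only a decay transcript annotated, so its exon could not overlap a coding one. Such exons were not counted in other genes, so whether the members have them more often is not known. At least 1 decay transcript is annotated for all 12 SR genes and 13 of the 21 hnRNP genes. Among the 30 members that could be compared, 22 (73.3%) have one, against 48.7% of 11015 protein-coding genes of the same minimum level. Those members also have more annotated transcripts of any kind, a median of 12.5 per gene against 8, and the shares were not adjusted for this. A gene-level value does not tell a coding transcript from a decay transcript. A shift between them inside a gene would not be seen in what follows.

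Levels are given as FPKM, a count of sequenced fragments that Cuffdiff divides by transcript length and by library size, and this scale allows levels of different genes to be compared. The sources used here do not state whether strand was used. A member was compared when both libraries were above 0 and their mean was at least 1 FPKM, and 30 of the 33 members passed. The ratio is anti-*APC* siRNA over untransfected, with no pseudocount. With 1 library per condition there is no replicate and no test, and values printed with an interval carry the 95% range that counting error alone would give, from read numbers estimated from the low FPKM values and transcript lengths. Such a range leaves out all variation between cultures. A change in RNA per cell and a change in the mix of cells cannot be told apart in these values.

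The silencing itself was seen in the same libraries, where *APC* went from 9.15 to 3.43 FPKM, a ratio of 0.375, and *AXIN2*, a feedback gene of canonical WNT signaling, from 4.11 to 28.7 FPKM. *MYC*, also a target of WNT signaling, had 178 and 185 FPKM, a ratio of 1.04. Of 10 colon epithelial markers listed for a check of the cell type, 6 reached a mean of 1 FPKM, led by *KRT8* at 588 FPKM in untransfected cells. All 6 were lower with anti-*APC* siRNA, against 58.6% of all genes of that minimum. *KRT20*, below that minimum, went the other way, from 0.475 FPKM in untransfected cells to 0.718 FPKM with anti-*APC* siRNA. *CDX1*, *VIL1* and *LGALS4*, which mark differentiated colon epithelium, were at or near 0. Of 6 markers of other cell types only *COL1A1* and *VIM* reached 1 FPKM, at 2.85 and 1.35 FPKM in untransfected cells and 3.08 and 2.17 FPKM with anti-*APC* siRNA, so both were higher. Whether the differences in these markers had a part in the values of splicing factors was not tested.

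SR proteins and hnRNPs were nearly at the same level in both libraries. None of the 30 members was at least 1.2-fold higher with anti-*APC* siRNA, against 9.87% of the 12063 genes that passed the same filter, and 1 member, *SRSF8*, was at least 1.2-fold lower, against 23.0% of those genes. No member reached 1.5-fold in either direction, a size seen in 2.56% of all genes upward and 6.61% downward (9.17% in either direction). Past 1.2-fold in either direction were 32.9% of all genes. The level was within 1.1-fold in 23 of the 30 members (76.7%) and in 42.1% of all genes. The median log2 ratio was 0.02 for the members and -0.05 for all genes, and 12 of the 30 members were below 0, against 58.6% of all genes (after the median of all genes was subtracted, 23.3% of the members were below 0). The median size of the difference, without its sign, was 0.06 for the members and 0.17 for all genes on the log2 scale.

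The members are abundant genes. In 22 of the 30 the mean level was at or above the 90th percentile of all genes compared. When only the 3391 genes with a mean of at least 30 FPKM were taken, 8.61% of them were at least 1.2-fold higher and 12.2% at least 1.2-fold lower, whereas none of the 27 members above that level was. Either direction together made 20.8% of these genes. Past 1.5-fold, where no member was either, were 2.39% upward and 2.83% downward, 5.22% in all. Within 1.1-fold were 23 of these 27 members, against 54.5% of the 3391 genes. The SD of the log2 ratio was 0.10 over the 27 members and 0.30 over the 3391 genes. These are descriptions of 1 pair of libraries, since genes are not replicates.

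**Figure D1:**
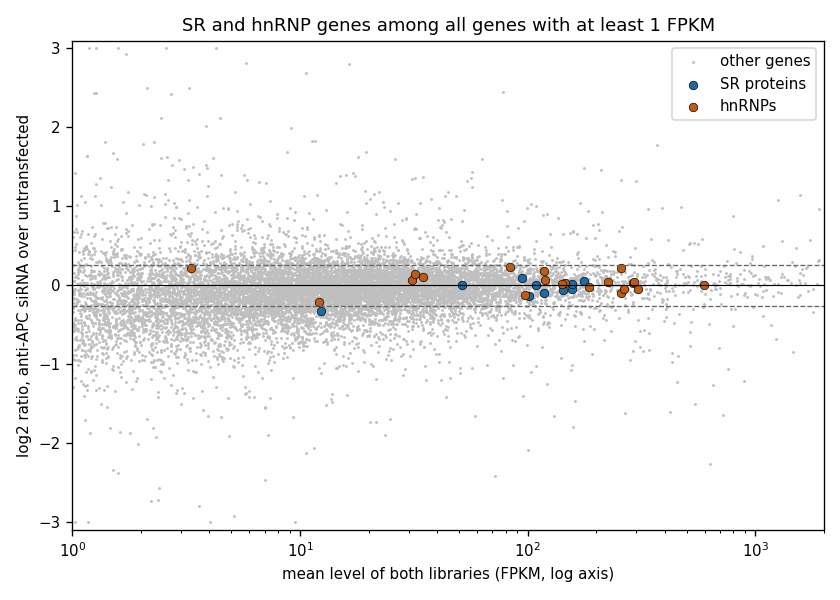
Log2 ratio of FPKM (anti-*APC* siRNA over untransfected) against the mean FPKM of both libraries on a log axis, with 1 point per gene. SR proteins are blue, hnRNPs orange and other genes grey, the dashed lines mark 1.2-fold, 9 genes beyond 3 are drawn at the edge and 32 genes above 2000 FPKM are not drawn. The members lie in a narrow band around 0, and only *SRSF8* is outside the dashed lines.

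Among the SR proteins the best known pair, *SRSF1* and its shorter paralog *SRSF9*, had nearly the same sum in both libraries. *SRSF1*, the founding member of the family and an activator of many exons, had 159 FPKM in untransfected cells and 154 FPKM with anti-*APC* siRNA, a ratio of 0.966 (counting interval 0.947 to 0.985). *SRSF9* had 172 and 179.7 FPKM, a ratio of 1.04 (1.001 to 1.08). Their sum was 332 FPKM without and 334 FPKM with the siRNA, and *SRSF1* made up 48.0% and 46.1% of it.

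*SRSF3* and *SRSF7*, small SR proteins that also promote export of mRNA from the nucleus, were close to the same level in both libraries. *SRSF3* had 156 FPKM in untransfected cells and 158 FPKM with anti-*APC* siRNA. *SRSF7* had 109 FPKM in both. Their ratios were 1.02 and 1.002, and both counting intervals include 1.

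*SRSF4*, *SRSF5* and *SRSF6* are built alike, with a pair of RNA recognition motifs and a long arginine- and serine-rich tail. *SRSF4* was the least abundant of them at 51.4 FPKM in untransfected and 51.5 FPKM in siRNA-treated cells. *SRSF5* had 122 and 114 FPKM, and *SRSF6* had 145 and 140.0 FPKM. The last 2 were therefore slightly lower with anti-*APC* siRNA, at ratios of 0.935 (0.896 to 0.976) and 0.962 (0.941 to 0.984).

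*SRSF10*, which can repress splicing when it is dephosphorylated, had 91.2 FPKM in untransfected cells and 97.5 FPKM with anti-*APC* siRNA. Its row is placed on an unlocalized contig of chromosome 1 from 36273 to 50281, not at the gene on chromosome 1 of GRCh37 from 24290837 to 24307417, and Cuffdiff did not test it. The contig interval holds 66.5% of the stretches of 36 bases of the main *SRSF10* transcript. Exact matches alone do not tell a partial copy from a full copy with mismatches. Which reads made up the value of *SRSF10* was not examined. Its relative *SRSF12* was listed at 0.0213 FPKM in untransfected cells and at 0 with the siRNA, too low to compare. *SRSF11*, an SR-related protein that interacts with U2AF, had 106 and 96.3 FPKM, a ratio of 0.911 (0.885 to 0.937).

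*SRSF8* gave the lowest ratio of the whole group. It had 13.7 FPKM in untransfected cells and 10.98 FPKM with anti-*APC* siRNA, a ratio of 0.799 and a log2 ratio of -0.32, with a counting interval of 0.739 to 0.864. *SRSF8* is a copy of *SRSF2* that arose by reverse transcription, and it is the least abundant SR protein gene above the minimum. Its parent *SRSF2*, a major exon activator, is marked as failed by Cuffdiff and listed at 0 in both libraries, as are the other 2 rows of its locus, *MFSD11* and *MIR636*. All 269 failed rows of the table are listed at 0, so this is no measurement of *SRSF2*.

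**Figure D2:**
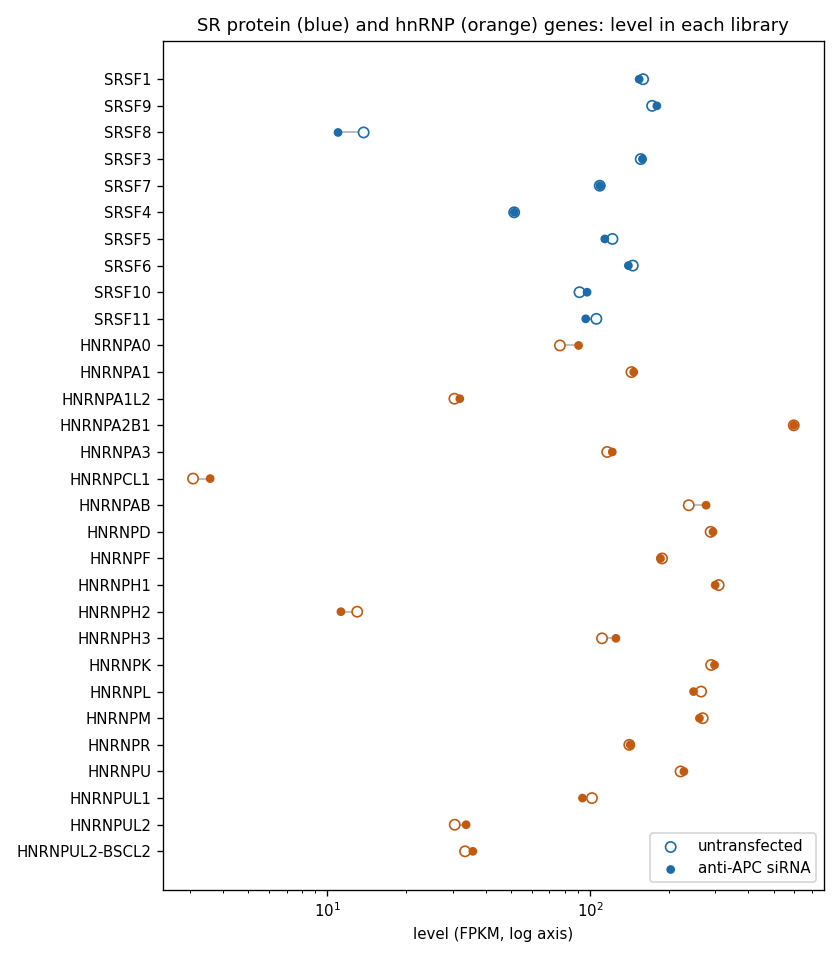
Level of each of the 30 compared members in FPKM on a log axis, ordered by subfamily. Open circles are the untransfected library and filled circles the anti-*APC* siRNA library, with SR proteins in blue and hnRNPs in orange, and the circles overlap for most genes over a range from 3.08 FPKM (*HNRNPCL1*) to 597 FPKM (*HNRNPA2B1*) in untransfected cells.

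The hnRNPs were the more abundant family, with a median of 142 FPKM in untransfected cells against 115 FPKM for the SR proteins. Summed over the listed members, the hnRNPs came to 3465 FPKM in untransfected cells and 3524 FPKM after silencing, a ratio of 1.02. The SR proteins had 1126 and 1111 FPKM, a ratio of 0.987. *HNRNPC* and *SRSF2* count as 0 in these sums.

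Within the A group, which bind UAG-like elements and repress exons, *HNRNPA2B1* was the most abundant member of all at 597 FPKM in both libraries. Its ratio was 0.9997, with a counting interval of 0.988 to 1.01. *HNRNPA1*, its best studied relative, had 144 and 147 FPKM. *HNRNPA3* had 116.2 and 122 FPKM.

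*HNRNPA0*, a gene without introns whose protein binds AU-rich elements in mRNA, had the highest ratio of the group. It had 76.8 FPKM in untransfected cells and 90.5 FPKM with anti-*APC* siRNA, a ratio of 1.18 (1.14 to 1.22). *HNRNPA0* made up 7.97% of the A group in untransfected cells and 9.16% with the siRNA, whereas the group sum was 964 and 987 FPKM.

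*HNRNPA1L2*, a copy of *HNRNPA1* on chromosome 13, was listed at 30.4 and 31.9 FPKM. Its coding sequence is 98.4% identical to that of *HNRNPA1* over 963 bases, and 57.3% of the stretches of 36 bases in its transcript also occur in transcripts of *HNRNPA1*. The read length is not given in the sources used here, and reads from these stretches cannot be assigned to 1 of the 2 genes by sequence. The pseudogene *HNRNPA1P10*, placed by Cuffdiff at the locus of *HNRNPA1* itself, was listed at 59.0 and 60.5 FPKM. The ratios of *HNRNPA1*, its copy and its pseudogene were 1.02, 1.05 and 1.03.

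The first 90 coding bases of the copies *HNRNPCL1* and *SRSF8* and of their parents are shown because neither parent has an estimate in the table. Capitals mark the positions at which copy and parent differ, and the sequences were read from GENCODE 44 transcripts on GRCh37. They span chr1:12908053-12908142 for *HNRNPCL1* and chr14:21702263-21702352 for *HNRNPC*, both on the minus strand. *SRSF8* is at chr11:94800391-94800480 on the plus strand and *SRSF2* at chr17:74733153-74733242 on the minus strand.
HNRNPCL1: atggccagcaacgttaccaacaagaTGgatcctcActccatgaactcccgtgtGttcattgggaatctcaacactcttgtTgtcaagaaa
HNRNPC: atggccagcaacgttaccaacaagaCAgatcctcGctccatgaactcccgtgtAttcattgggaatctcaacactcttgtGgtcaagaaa
SRSF8: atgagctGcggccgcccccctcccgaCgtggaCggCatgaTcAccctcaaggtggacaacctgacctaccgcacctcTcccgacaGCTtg
SRSF2: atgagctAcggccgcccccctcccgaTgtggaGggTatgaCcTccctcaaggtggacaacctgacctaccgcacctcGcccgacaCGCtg

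Copy and parent differ at 5 of these 90 bases for *HNRNPCL1* and at 10 for *SRSF8*. Over the aligned coding sequence *HNRNPCL1* is 94.8% identical to *HNRNPC* and shares 8.19% of its stretches of 36 bases with it. *SRSF8* is 84.8% identical to *SRSF2* over the aligned coding bases and shares 0.234% of its stretches. The shares of stretches are exact matches over the whole transcript of each copy, noncoding parts included. How many reads listed for either copy came from its parent was not tested.

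*HNRNPC*, which covers uridine tracts and is usually among the most abundant hnRNPs, is marked as failed and listed at 0 in both libraries. Its copy *HNRNPCL1* on chromosome 1 was listed at 3.08 FPKM in untransfected and 3.58 FPKM in siRNA-treated cells. The ratio of 1.16 has a counting interval of 0.867 to 1.56, and no difference was detectable at this depth. A neighbouring row at the same locus, LOC649330, whose gene ID belongs to the further copy *HNRNPCL3* in RefSeq, was listed at 39.2 and 39.9 FPKM (it was singled out after its values were seen). Levels of these copies beside a parent with no estimate are uncertain, because the division of reads between them was not tested.

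*HNRNPD* (AUF1), a regulator of mRNA decay as well as splicing, had 288 FPKM in untransfected cells and 294 FPKM with anti-*APC* siRNA. Its relative *HNRNPAB* had 238 and 277 FPKM, a ratio of 1.16 (log2 ratio 0.22, counting interval 0.18 to 0.26). *HNRNPAB* was thus the second highest ratio of the group and, unlike *HNRNPCL1*, rested on an estimated 10516 reads in the untransfected library. The locus it shares with *AGXT2L2* held little other signal, 3.35 FPKM without and 2.09 FPKM with the siRNA.

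The F and H group binds runs of guanines. *HNRNPH1* had 309 FPKM in untransfected cells and 299.7 FPKM with anti-*APC* siRNA, and *HNRNPF* had 188 and 186 FPKM. *HNRNPH3* was higher, at 111 FPKM without and 126 FPKM with the siRNA, a ratio of 1.13 (1.09 to 1.17). The sum of the 4 genes was 621 and 622 FPKM, in which *HNRNPH3* took 17.9% and 20.2%.

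*HNRNPH2*, the X-linked copy of *HNRNPH1*, was the rarest of the 4 and had 13.0 FPKM in untransfected cells and 11.3 FPKM with anti-*APC* siRNA. Its ratio was 0.867 (0.778 to 0.966). Cuffdiff placed it at 1 locus with *GLA*, *RPL36A* and the read-through transcript *RPL36A-HNRNPH2*, and that last row was listed at 61.7 and 56.9 FPKM, well above *HNRNPH2* itself. Summed with the read-through row, *HNRNPH2* had 74.7 and 68.1 FPKM, a ratio of 0.912 (this sum was chosen after the values were seen).

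The other abundant hnRNPs lie in a narrow range. *HNRNPK*, which binds cytosine-rich sequence in RNA and DNA, had 289 and 298 FPKM. *HNRNPM* had 269 and 261 FPKM, and *HNRNPR* had 141 and 142 FPKM. *HNRNPL*, which binds CA repeats, had 265 and 248 FPKM and the lowest ratio of these 4 genes, 0.936 (0.914 to 0.959).

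*MIR7-1*, a microRNA gene that Cuffdiff placed at the locus of *HNRNPK*, was listed at 20.7 FPKM in untransfected cells and 37.5 FPKM with anti-*APC* siRNA, whereas *HNRNPK* itself was at a ratio of 1.03. How reads were divided between this short gene and its host was not tested.

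*HNRNPU*, a scaffold protein of the nucleus that binds RNA and chromatin, had 221 FPKM in untransfected cells and 228 FPKM with anti-*APC* siRNA. Its relative *HNRNPUL1* had 102 and 93.6 FPKM, a ratio of 0.920 (0.894 to 0.947). *HNRNPUL2* had 30.5 and 33.7 FPKM, and its read-through row *HNRNPUL2-BSCL2*, which the symbol rule also takes, had 33.4 and 35.8 FPKM. At that same locus *BSCL2*, the downstream gene, went from 11.5 to 6.08 FPKM, so that the part of the locus read as *BSCL2* and the part read as *HNRNPUL2* had opposite directions. How reads were divided among the 4 rows of this locus was not tested.

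**Figure D3:**
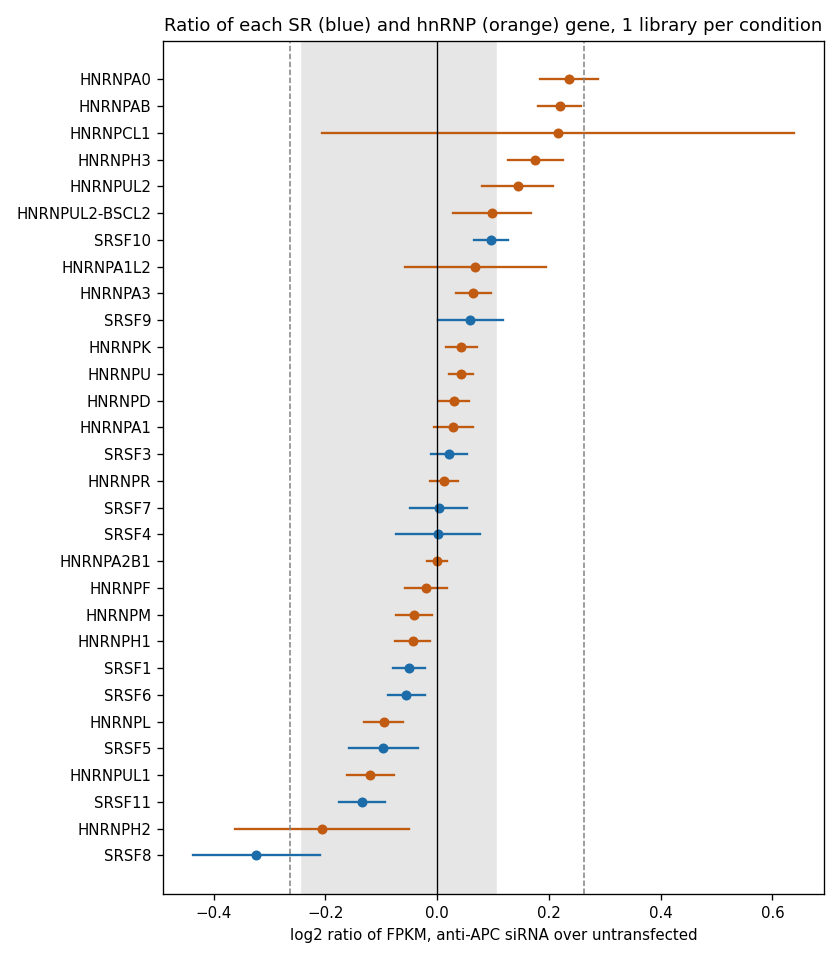
Log2 ratio of FPKM (anti-*APC* siRNA over untransfected) for the 30 compared members, in order, with SR proteins in blue and hnRNPs in orange. Bars are 95% ranges from counting error alone, the grey band is the interquartile range of all 12063 genes (-0.24 to 0.11) and the dashed lines mark 1.2-fold, which only *SRSF8* passes.

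The counting intervals leave out 1 in 21 of the 30 members, but they are narrow because the genes are abundant (the median counting error was 0.02 on the log2 scale), and the variation between cultures, for which there is no estimate, is not in them. The order of levels was nearly kept: no member moved by more than 2 places among the 30, and 15 held the same place. The 3 members under 30 FPKM (*SRSF8*, *HNRNPH2* and *HNRNPCL1*) had a median difference without sign of 0.22 on the log2 scale, against 0.06 in the 27 others.

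Genes that work with SR proteins and hnRNPs were looked at in 8 lists with 166 names, of which 163 were in the table and 144 passed the filter. Of the 144 genes, 9 were at least 1.2-fold higher and 10 at least 1.2-fold lower, against 9.87% and 23.0% of all genes, the shares to set beside each list that follows. Their median log2 ratio was -0.02. Only *RBM24*, an RNA-binding protein best known from muscle, passed 1.5-fold, with 6.09 FPKM in untransfected cells and 12.02 FPKM with anti-*APC* siRNA.

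Kinases, phosphatases and import receptors of SR proteins (among them SRPK and CLK kinases) had no gene past 1.2-fold in either direction among 15, with a median log2 ratio of 0.05. SR-like regulators had 1 of 20, *PPIG*, a cyclophilin with an arginine- and serine-rich tail, at 55.9 and 68.6 FPKM. The nonsense-mediated decay factors, which remove transcripts with poison exons, had none of 15.

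The list of Sm and U snRNP proteins had 2 genes higher and 1 lower by 1.2-fold among 24. These were *SNRNP25* and *SNRNP27*, at ratios of 1.24 and 1.37, and *SNRNP35*, at 0.817. The genes that recognize the 3′ splice site had 1 lower among 18, *SF3B1*, a U2 snRNP subunit that holds the branch point, at 219.5 and 181 FPKM. Genes named from these lists here and below that are not past 1.5-fold were singled out after their values were seen, apart from *HNRPDL*, *HNRPLL*, *SYNCRIP* and *PTBP1*.

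The list of arginine methyltransferases, which methylate the glycine- and arginine-rich parts of hnRNPs, also holds the PRMT5 partners *CLNS1A* and *WDR77* and had the lowest median of the 8 lists. Of its 9 genes, 8 were below 0 (*CLNS1A* was the exception, at 0.19), against 58.6% of all genes. At least 1.2-fold lower were 3 (none was higher by that size), and the median log2 ratio was -0.16. *PRMT1*, the main such enzyme, had 194 FPKM in untransfected cells and 150.1 FPKM with anti-*APC* siRNA, a ratio of 0.776. In all genes 23.0% were at least 1.2-fold lower, and the count of 3 of 9 is to be read beside that share.

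The hnRNP-like RNA-binding proteins under other names had 3 genes higher and 1 lower by 1.2-fold among 25. *HNRPDL* and *HNRPLL*, older symbols of *HNRNPDL* and *HNRNPLL* that the symbol rule does not take, had log2 ratios of -0.18 (76.1 and 67.2 FPKM) and 0.27 (22.7 and 27.3 FPKM). *SYNCRIP*, the close relative of *HNRNPR*, had 180.4 and 186 FPKM. *PTBP1*, a repressor that binds pyrimidine tracts, had 181 FPKM in untransfected cells and 165 FPKM with anti-*APC* siRNA.

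Of 18 genes from a list named for tissue-restricted regulators, 3 were higher and 4 lower by 1.2-fold, beside 9.87% and 23.0% of all genes. The list is mixed and also holds well-expressed genes, such as *RBM4* and *TIAL1* at 56.3 and 55.0 FPKM in untransfected cells. The SD of the log2 ratio over the 18 genes was 0.33, against 0.38 for all genes and 0.12 for both SR proteins and hnRNPs. A spread as narrow as that of the members was also seen in other lists. The SD was 0.097 for SR-like regulators, 0.109 for decay factors and 0.113 for kinases, phosphatases and import receptors. It was 0.149 for 3′ splice site genes, 0.157 for Sm and U snRNP proteins, 0.168 for hnRNP-like proteins and 0.199 for the methyltransferase list. *ESRP1*, an epithelial splicing regulator, had 55.4 FPKM in untransfected cells and 45.2 FPKM with anti-*APC* siRNA. The epithelial marker *CDH1* was also lower, from 19.0 to 12.1 FPKM, and whether the epithelial markers had a part in the value of *ESRP1* was not tested.

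**Figure D4:**
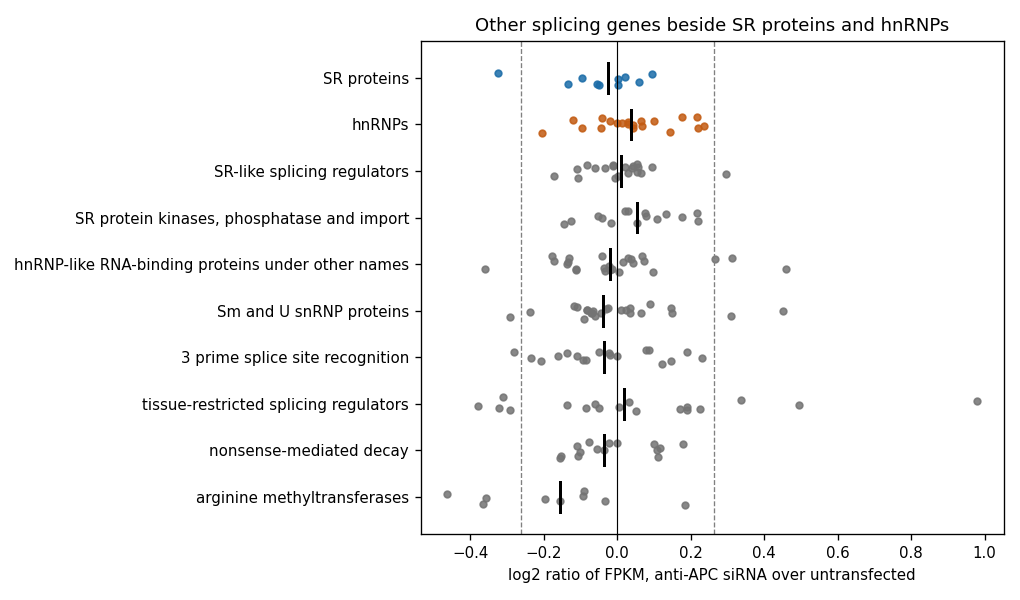
Log2 ratio of FPKM (anti-*APC* siRNA over untransfected) for SR proteins (blue), hnRNPs (orange) and 8 lists of other splicing genes (grey), with 1 point per gene spread vertically for legibility and a black bar at each median. Dashed lines mark 1.2-fold, and the highest point is *RBM24* at 0.98.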

How the data were processed

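Single-read TruSeq libraries of HCT-116 cells were sequenced by the authors, 1 per condition. Per the labels, Cufflinks and Cuffdiff were used on hg19; versions, aligner and annotation are not given in the sources used here. The deposited table holds the authors' FPKM per gene for the anti-*APC* and untransfected libraries. Its columns of the authors' comparison (the q-value, the p-value, the statistic behind them and the natural log of the ratio) were deposited too and were not used. Values for scrambled siRNA were not used here, and protein features were not computed. The coding sequences of 1 copy and its parent are not reported here.

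Members, lists and thresholds were chosen with earlier results of these data known. By rule the named genes were all members, *APC* and *AXIN2*, listed splicing genes past 1.5-fold, *HNRPDL*, *HNRPLL*, *SYNCRIP* and *PTBP1*, and rows past 1.2-fold that share a member's locus. The markers, *MYC*, other list genes, pseudogenes and other rows at a member's locus were named after their values were seen. Log2 ratios used no pseudocount, over genes above 0 in both libraries with a mean of at least 1 FPKM.

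The table gives no counts. Of 2819 genes under 0.3 FPKM in mean, 388 share a log2 ratio of 0.13 within 0.005, and 172, 134, 91 and 45 lie where 1 against 2, 2 against 1, 1 against 3 and 3 against 1 reads would, which together hold 29.4% of these genes. The depth estimate takes these as steps of whole reads, and the other low genes were not resolved. The upper quartile over 69 such genes with a length and 1 transcript gave about 25000000 reads for the untransfected and 22800000 for the anti-*APC* library. The median, 18900000 and 17300000, includes genes with several equal reads. Counting errors follow from these depths and the main transcript's length in GENCODE 44 (GRCh37), limited to the span of the locus, and are approximate. Symbols matched a gene model in 21204 of 23131 rows and for all 33 members, directly or through RefSeq synonyms. Simulated data for this comparison held 15252 genes and counting noise only, and changes were planted and scored among genes of at least 30 FPKM. There 200 of 200 genes changed 2-fold passed 1.5-fold, and 0 of 3104 unchanged ones did. Variation between cultures was not simulated, so this gives no rate of false calls for the real libraries or for members of lower level. Changes under 1.5-fold, the size seen in the members, were not planted, so their recovery is not known.

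Alternatives were other minimums, pseudocounts, centring on the median or a lowess trend (fraction 0.3), and subsets of members. Trends used statsmodels 0.14.6, alignments Biopython 1.88, figures matplotlib 3.10.9, and tables pandas 2.3.3 under Python 3.11.15.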

Additional observations from a re-analysis of the deposited data

How the results depend on the processing

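The median log2 ratio of the SR and hnRNP members was 0.02 and moved by more than the median counting error under 1 of 11 alternatives, to 0.070 after the median of all genes was subtracted. The share of members below 0 was 40%, and 23.3% after that subtraction. No member passed 1.5-fold in either direction under any of the 11. Other minimums and subsets leave each ratio as it is and a pseudocount shrinks it, so only centring could have moved a member past that size. A minimum of 0.5 FPKM and no minimum both kept the same 30 members. The count at least 1.2-fold higher was 0, and it was 3 after that median was subtracted (*HNRNPA0*, *HNRNPAB* and *HNRNPCL1*) and 1 after a lowess trend on expression was subtracted (*HNRNPCL1*). The count at least 1.2-fold lower was 1 (*SRSF8*), and it was 0 after the lowess trend, where *SRSF8* was at -0.26, and 0 among genes of at least 30 FPKM, a minimum chosen after the data were seen that leaves *SRSF8* out. Over all genes the shares higher and lower by 1.2-fold, 9.87% and 23.0%, became 13.3% and 18.9% after median centring and 14.9% and 16.3% after the lowess trend. Of the single members, 26 of 30 moved by more than their counting error under median centring, 4 under the lowess trend and 0 with a pseudocount of 1 FPKM. No paired analysis was possible because each condition has 1 library. Scrambled siRNA as the control was not run. Depth, about 25000000 reads by estimate, limits *HNRNPCL1* (about 87.3 reads) and *SRSF12* most, and the counting intervals of *HNRNPA1L2* and *HNRNPH2* are wide too.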
